A study of Mus musculus with 2 samples.

Results

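The collagen and laminin genes are the main structural genes of the extracellular matrix. They were taken as all protein-coding genes of the GENCODE mouse annotation (build mm10) whose symbols follow the Col and Lam naming pattern, which gave 55 members, 44 collagens and 11 laminins, among 21800 protein-coding genes. Their chromatin was read from 2 DNase-seq libraries, called replicates 1 and 2, of left cerebral cortex from adult male B6CASTF1/J mice of 18 to 20 months, an F1 hybrid of a C57BL/6 strain and the wild-derived CAST strain. DNase I cuts open chromatin, so a peak of cuts marks an accessible region and a footprint marks a short stretch inside it with fewer cuts than its surroundings. Both libraries carry the same genotype, sex and age and no treatment, so the study has a single group and no test between conditions, and each value is given per library. Per the labels the tissue samples are separate while the donor entry is the same for both, so whether the spread between libraries is technical is not known.

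Collagens are built from 3 alpha chains wound into a triple helix. Fibrillar collagens form the tensile fibres of connective tissue. Network collagens, above all collagen IV, form sheets in basement membranes, while FACIT collagens attach to fibres and membrane collagens span the cell surface. Laminins are trimers of an alpha, a beta and a gamma chain that assemble first in a basement membrane and bind receptors on cells. In the brain these proteins lie mainly in the basement membranes of blood vessels, in the meninges and at the surface of the cortex. Vascular endothelium, mural cells, fibroblasts and astrocyte endfeet are their known sources, and some membrane collagens are also made by neurons.

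Replicate 1 had 73221 peaks in the shorter list used throughout and 264450 footprints. Replicate 2 had 111105 peaks and 385637 footprints. The longer lists of wider peaks held 120015 and 178564 peaks. Among marker genes of the cell types in cortex, 6 of 6 neuronal markers had a promoter peak in both libraries, as did 4 of 6 oligodendrocyte markers. Astrocyte markers had 2 and 3 of 6, microglial markers 1 of 6 in each library and choroid plexus markers 0 and 2 of 5. Of the vascular and meningeal markers, 2 of 6 endothelial genes had a promoter peak in replicate 1 and 0 of 6 in replicate 2, mural cell genes had 3 and 2 of 6, and fibroblast genes had 2 and 3 of 7. The share over all protein-coding genes was 60.7% and 61.2%. The 2 endothelial genes with a peak were Flt1 and Kdr, while Cldn5, Cdh5, Pecam1 and Tek had none in the shorter list of either library. In the longer lists Cdh5 had a promoter peak of 0.396 in replicate 1 and Cldn5 one of 0.30 in replicate 2. In bulk tissue, fewer cells of a type and less accessibility per cell cannot be told apart. The marker lists are also not matched for CpG content near the start, which is defined further on. In its low class, 12.3% and 15% of all genes had a promoter peak. That class held 4 of 6 microglial, 4 of 6 oligodendrocyte, 3 of 6 endothelial and 3 of 7 fibroblast markers. It also held 2 of 6 mural cell, 2 of 5 choroid plexus, 1 of 6 astrocyte and 1 of 6 neuronal markers.

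Selected accessible regions of the members are printed here because the strongest signals and the footprints described further on lie in them. All are reference sequence of GRCm38.p6 (mm10) on the strand of the gene, with the limits of the replicate 1 peak. Capitals mark bases inside the footprints of both libraries. The intronic Col16a1 region is chr4:130087441-130087640 (plus strand), the intronic Col23a1 region is chr11:51539721-51539940 (plus strand) and the intronic Col27a1 region is chr4:63307521-63307660 (plus strand). The region upstream of Col13a1 is chr10:61980541-61980720 (minus strand). The Col1a1 region, in an intron, is chr11:94937101-94937260 (plus strand).
Col16a1 intron: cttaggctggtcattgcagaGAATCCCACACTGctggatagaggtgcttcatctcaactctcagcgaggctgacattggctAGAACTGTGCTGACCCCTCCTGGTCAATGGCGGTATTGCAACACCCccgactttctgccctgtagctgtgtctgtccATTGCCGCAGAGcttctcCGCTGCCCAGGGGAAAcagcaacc
Col23a1 intron: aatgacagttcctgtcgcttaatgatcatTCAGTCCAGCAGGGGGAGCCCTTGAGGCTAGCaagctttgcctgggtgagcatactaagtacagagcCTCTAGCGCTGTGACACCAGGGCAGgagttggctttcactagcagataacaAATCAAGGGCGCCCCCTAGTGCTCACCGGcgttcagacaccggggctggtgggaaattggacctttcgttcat
Col27a1 intron: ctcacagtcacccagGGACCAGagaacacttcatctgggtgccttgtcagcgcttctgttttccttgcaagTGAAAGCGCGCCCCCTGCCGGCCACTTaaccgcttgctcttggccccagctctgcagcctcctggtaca
Col13a1 upstream: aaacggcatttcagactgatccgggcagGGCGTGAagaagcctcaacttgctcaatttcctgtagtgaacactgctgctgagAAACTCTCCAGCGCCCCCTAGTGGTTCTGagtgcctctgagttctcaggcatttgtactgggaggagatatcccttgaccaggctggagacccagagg
Col1a1 intron: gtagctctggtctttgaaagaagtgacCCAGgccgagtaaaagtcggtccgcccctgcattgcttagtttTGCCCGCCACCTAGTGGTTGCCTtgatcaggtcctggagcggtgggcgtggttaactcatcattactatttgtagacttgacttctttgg

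A promoter peak, lying within 1 kb of the start of an annotated coding transcript, was present at 24 of 55 members in replicate 1 (43.6%) and at 23 of 55 in replicate 2 (41.8%). Over all protein-coding genes it was 60.7% and 61.2%. Both libraries held a promoter peak at 21 members, against 58.7% of all genes, and neither did at 29, against 36.8% of all genes. In the longer lists 33 and 37 members had a promoter peak, against 65% and 66% of all genes, and 31 had one in both libraries, against 63.3%. A promoter peak covered a start site itself at 10 and 9 members, against 47.4% and 46.6% of all genes. Of the members with a promoter peak, 18 and 19 were among the 44 collagens, and 6 and 4 among the 11 laminins.

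**Figure D1:**
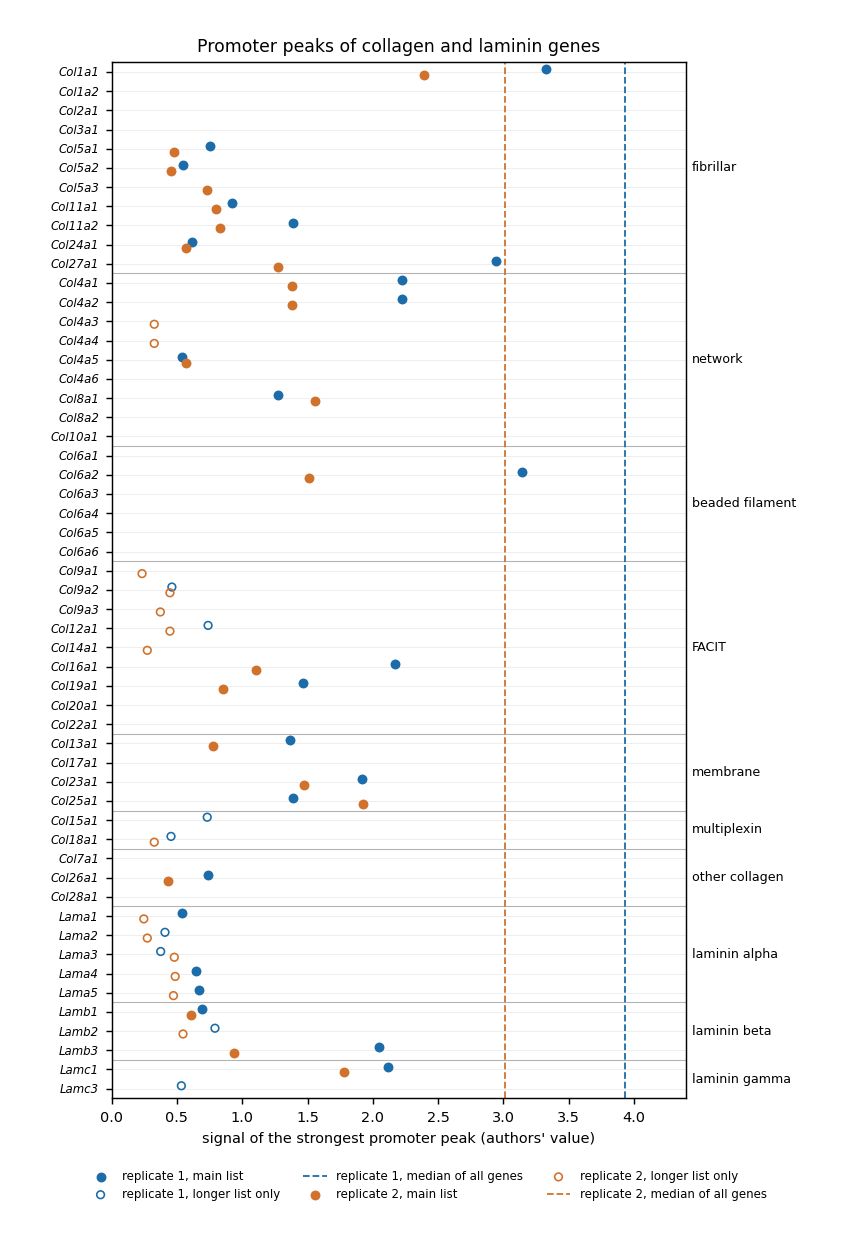
Signal of the strongest promoter peak (x axis, the authors' value) of 54 of the 55 collagen and laminin genes (y axis, grouped by structural class), in replicate 1 (blue) and replicate 2 (orange). Filled points are peaks of the shorter list and open points are peaks of the longer list only; dashed lines are the medians over all protein-coding genes with a promoter peak in both libraries (3.93 and 3.01), and a row without points had no peak in any list.

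Signals at these promoters were low. The signal of a peak is the authors' own value. Over the 21 members with a promoter peak in both libraries the median of the strongest promoter peak was 1.39 in replicate 1 and 0.934 in replicate 2, and over all 12789 such genes it was 3.93 and 3.01. Not one of the 21 members reached the all-gene median in either library. Col1a1 came closest, at percentiles 41.4 and 39.2 of those genes. Col5a2 was at percentiles 0.852 and 1.04, and Col4a5 at 0.798 and 2.40.

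The count was read against CpG content, the ratio of observed to expected CG pairs within 500 bp of the start, with all genes split into 3 classes of equal size at 0.318 and 0.719. Members fell mostly into the middle class, with 15 in the low, 30 in the middle and 10 in the high class. In the middle class 13 and 12 of 30 members had a promoter peak, against 74.3% and 74.5% of all genes of that class. In the high class 8 of 10 did in both libraries, against 95.4% and 94.1%. In the low class 3 of 15 did in both, against 12.3% and 15%, and these were Col1a1, Col24a1 and Lamb3. In replicate 1 the Col1a1 and Lamb3 peaks lay 877 and 576 bp from the start, outside the 500 bp in which CpG content was measured. The median ratio was 0.591 for members with a promoter peak in both libraries and 0.344 for those with none. The classes match CpG content only in part. In the middle class the median ratio was 0.459 for members and 0.571 for all genes. It was 0.257 and 0.158 in the low class, and 0.766 and 0.835 in the high class. How much of the gap within a class goes with CpG content was not tested.

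**Figure D2:**
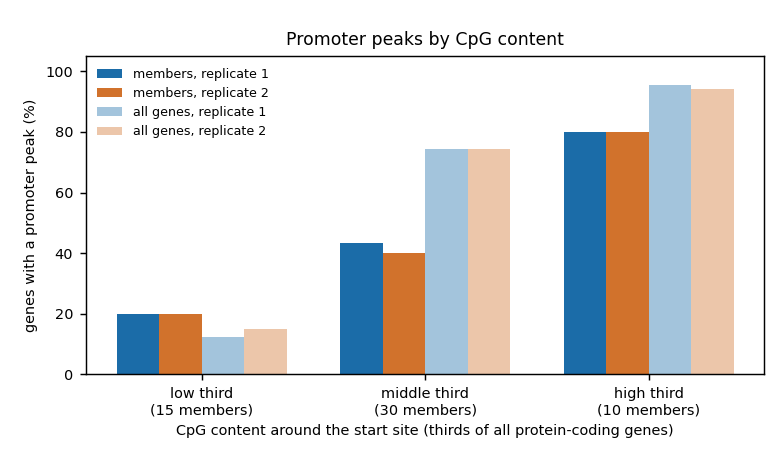
Percent of genes with a promoter peak (y axis, from 0) in 3 equal classes of CpG content around the start site (x axis), for members (dark bars) and all protein-coding genes (pale bars) in replicate 1 (blue) and replicate 2 (orange). In the middle class, members stood at 43.3% and 40.0%, below 74.3% and 74.5% of all genes. The median CpG ratio in that class was 0.459 for members and 0.571 for all genes.

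Among the 11 fibrillar collagen genes, 7 had a promoter peak in replicate 1 and 8 in replicate 2. Shorter-list counts of this and the following classes stand beside 60.7% and 61.2% of all genes, and 58.7% for both libraries. Col1a1, the major chain of collagen I (chr11:94936224-94953042, plus strand), had the strongest promoter peak of all members, at 3.33 and 2.39 (mean 2.86 ± 0.662, SD, n = 2). Its peak was centred 956 bp downstream of the start in replicate 1 and 976 bp in replicate 2, in an intron, and the start site was covered in neither library. The nearest edges of that peak lay 877 and 857 bp from the start, just inside the 1 kb limit. Col12a1 had a peak at 3.58 and 1.94 whose edge lay 1338 bp from its start, and it was counted as distal. Col1a2 and Col3a1, which encode the other major chains of the dermal and vascular fibres, had no promoter peak in any list, and neither did Col2a1, the cartilage fibre chain.

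Col27a1, a fibrillar collagen of cartilage, followed Col1a1 in this class at 2.94 and 1.27 (mean 2.11 ± 1.18, SD, n = 2), so the libraries differed widely. Col11a2 had 1.39 and 0.827 with a peak upstream of its start. Col11a1 had 0.924 and 0.801 over its start site, and the adjacent values of Col5a1 (0.752 and 0.480), Col24a1 (0.614 and 0.567) and Col5a2 (0.548 and 0.454) lay close together. Collagen V and XI chains are the minor fibre chains that set fibre diameter. Col5a3 had a peak of 0.734 in replicate 2 and none in either list of replicate 1.

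Among the 9 network collagens, 4 had a promoter peak in both libraries. Col4a1 and Col4a2 encode the 2 ubiquitous chains of collagen IV, the sheet of every basement membrane, and start back to back on chromosome 8 (chr8:11198423-11312826, minus strand, and chr8:11312805-11449287, plus strand). The strongest promoter peak of both genes is the same peak, at 2.22 in replicate 1 and 1.38 in replicate 2 (mean 1.80 ± 0.595, SD, n = 2), which is 1 measurement for both genes. That peak is chr8:11312681-11312820 in replicate 1, where it covers the Col4a2 start, and is wider in replicate 2, where it covers both starts. It holds 5 footprints in replicate 1 and 6 in replicate 2, and 3 of the stretches covered in both libraries, at chr8:11312735-11312748, chr8:11312785-11312796 and chr8:11312803-11312816, are printed on the Col4a1 strand because the last of them spans the Col4a2 start and the others lie just inside Col4a1.
Col4 shared promoter, stretch a: GGTCTCTGCGCAGA
Col4 shared promoter, stretch b: GAGGGGGCAGCG
Col4 shared promoter, stretch c: CGCCCGCGCACTGC

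Some distal peaks of the pair were stronger than the shared promoter peak, 4 of 16 in replicate 1 and 9 of 23 in replicate 2. Col4a1 had 6 distal peaks in replicate 1 and 9 in replicate 2, and Col4a2 had 10 and 14. An intronic Col4a1 peak at chr8:11273561-11273800 had signals of 3.97 and 5.15 (mean 4.56 ± 0.834, SD, n = 2), and another at chr8:11253601-11253780 had 4.57 and 2.74. The strongest Col4a2 peak, at chr8:11382501-11382720 in an intron, had 2.88 and 3.57.

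**Figure D3:**
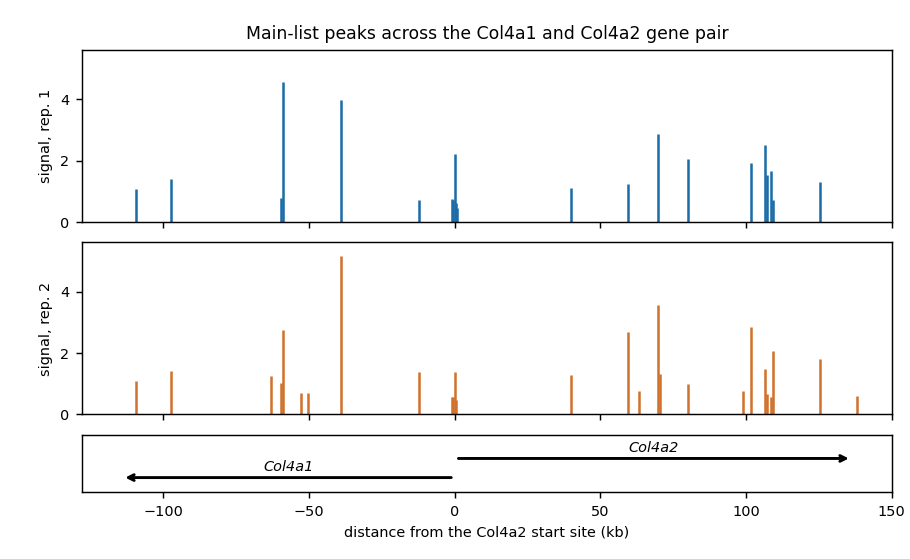
Peaks of the shorter lists across Col4a1 and Col4a2, drawn as lines at the peak centre (x axis, distance in kb from the Col4a2 start site) with the height of the authors' signal (y axis) in replicate 1 (blue) and replicate 2 (orange); arrows show the 2 genes and their direction. The shared promoter peak at 0 kb (2.22 and 1.38) is lower than the strongest intronic Col4a1 peak in each library (4.57 in replicate 1 and 5.15 in replicate 2).

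The remaining collagen IV genes gave weaker values. Col4a5, on the X chromosome, had 0.541 and 0.567 over its start, while Col4a6, its head-to-head partner, had no promoter peak in any list. Col4a3 and Col4a4, which also start back to back, shared a peak of 0.327 in the longer list of replicate 2 only. Col8a1, a short-chain collagen of vessel walls, had 1.27 and 1.55, with its strongest peak upstream of the start. Col8a2 and Col10a1, the latter a collagen of growth plate cartilage, had none in any list.

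Collagen VI, which forms beaded filaments around cells, had a promoter peak at 1 of 6 genes. This was Col6a2, at 3.14 and 1.51 (mean 2.33 ± 1.15, SD, n = 2), the second highest mean among members. Col6a1, Col6a3, Col6a4, Col6a5 and Col6a6 had none in any list. Col6a1 nevertheless had 3 distal peaks in each library, at 8.03 per 100 kb.

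Of the 9 FACIT collagens, 2 had a promoter peak in both libraries. Col16a1 had 2.17 and 1.11 over its start, and Col19a1 had 1.46 and 0.854, at different peaks in the 2 libraries. Col12a1 and Col9a2 had a peak in the longer lists of both libraries, Col9a1, Col9a3 and Col14a1 in that of replicate 2 only, and Col20a1 and Col22a1 in no list. The collagen class with the largest share was that of the membrane collagens, with 3 of 4 in both libraries, against 58.7% of all genes. The fibrillar class, at 7 and 8 of 11, was close, and 1 gene decides the rank of a class of 4. Of the 4, 2 were in the high CpG class, where 95.4% and 94.1% of all genes had a promoter peak. Col23a1 had 1.92 and 1.47, Col25a1, whose shed product is found in amyloid plaques, had 1.39 and 1.92, and Col13a1 had 1.37 and 0.774 in a coding exon 623 bp downstream of its start. The fourth, Col17a1 of the epithelial hemidesmosome, had none in any list. The multiplexins Col15a1 and Col18a1, which sit in vascular basement membranes, had none in the shorter lists. In the longer lists Col15a1 had 0.732 in replicate 1 only and Col18a1 had 0.455 and 0.327. Of the 3 other collagens, Col26a1 had 0.739 and 0.434, also at different peaks, and Col7a1, the anchoring fibril collagen of skin, and Col28a1 had none in any list.

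Laminin promoters were weak but mostly detectable in the longer lists. There 11 of 11 had a promoter peak in replicate 1 and 10 of 11 in replicate 2, against 65% and 66% of all genes. The middle CpG class held 8 of the 11 laminins, and 81.1% and 80.8% of all genes of that class had one in the longer lists. Lamc1, the gamma chain of most laminins (chr1:153218922-153332786, minus strand), had the highest mean of the laminins, at 2.12 and 1.78 (mean 1.95 ± 0.238, SD, n = 2). These maxima were different peaks in the 2 libraries. The replicate 1 maximum covered the start, and the peak overlapping it in replicate 2 had 1.44.

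Lamb1, the common beta chain, had 0.693 and 0.607. Lamb3, known from epithelial laminin, had 2.05 and 0.934 at a peak 655 bp downstream of the most upstream of its 3 annotated starts, and no peak of the shorter lists lay within 1 kb of the other 2. Lamb2, the beta chain of vascular and synaptic basement membranes, had peaks only in the longer lists, at 0.792 and 0.547. Lamc3 had 0.534 in the longer list of replicate 1 only.

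The alpha chains carry the receptor-binding end of a laminin. Lama1 (0.541), Lama4 (0.647), the endothelial chain, and Lama5 (0.673) had a promoter peak in the shorter list of replicate 1, and 0 of 5 alpha genes had one in that of replicate 2. In the longer list of replicate 2 the same 3 genes had 0.247, 0.487 and 0.474. Lama2, the chain of muscle and of astrocyte endfeet, and Lama3 had peaks in the longer lists only, at 0.409 and 0.274 for Lama2 and 0.376 and 0.480 for Lama3. The endothelial markers were also lower in replicate 2 by their summed signal, as were the mural cell, fibroblast and oligodendrocyte markers. Microglial and neuronal sums were lower by little. Summed promoter signals in the shorter lists were 2.03 and 0.974 for mural cell, 4.35 and 2.65 for fibroblast and 5.81 and 3.66 for oligodendrocyte markers. For microglial markers they were 3.13 and 2.90, and for neuronal markers 14.7 and 14.5. Over all genes with a promoter peak in both libraries, replicate 1 was higher by a median log2 difference of 0.32. The microglial and neuronal gaps were smaller than this. The sum of the endothelial markers was 1.68 in replicate 1, from Kdr (1.08) and Flt1 (0.607). It was 0 in replicate 2, and Cldn5, Cdh5, Pecam1 and Tek had no peak in the shorter list of either library. Cdh5, Pecam1 and Tek are in the low CpG class, where 12.3% and 15% of all genes had a promoter peak. In the longer list of replicate 2, Kdr had 0.447 and Cldn5 0.30, so the 0 is set by the limit of the shorter list. The astrocyte markers (2.55 in replicate 1 and 3.25 in replicate 2) and the choroid plexus markers (0 and 2.55) went the other way. In the longer list of replicate 1, Slc1a3 had 0.534 and Gja1 0.416, with no peak in its shorter list. The direction of the astrocyte sum thus also depends on the limit of the shorter list. The part of any of these cell types in the result was not tested.

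The 29 members without a promoter peak in the shorter lists were examined in the authors' per-base false discovery rates, listed up to 0.05. A listed base lay within 1 kb of a start at 11 of the 29 in replicate 1 and 14 in replicate 2, against 9.16% and 11.3% of all genes without a promoter peak. In the middle CpG class these were 8 and 9 of 15 members, against 22.5% and 21.3%. At a false discovery rate of 0.001 they were 1 and 1, against 0.735% and 1.4%, namely Col15a1 in replicate 1 and Col14a1 in replicate 2. For 13 of the 29, neither library listed a base, against 84.7% of such genes. In the longer lists 8 and 11 of the 29 had a promoter peak, against 7.38% and 8.73%. In the middle CpG class these were 5 and 8 of 15, against 19% and 16.7%. No peak of any list lay at the promoters of 16 of the 55 members, against 32.3% of all genes.

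Replicate 1 gave the higher promoter signal at 18 of the 21 members with a peak in both libraries, beside 9651 of all 12789 such genes. Col4a1 and Col4a2, with 1 shared peak, count as 2 of the 21. The log2 difference, replicate 1 minus replicate 2, had a median of 0.65 and ran from -0.47 to 1.21. Over all such genes the median was 0.32. The exceptions were Col25a1, Col8a1 and Col4a5. The 2 libraries lay within 2-fold of each other at 18 of the 21 (85.7%), beside 93.6% of all such genes. Of the member promoter peaks, 80.6% of 36 in replicate 1 and 82.9% of 35 in replicate 2 overlapped a peak of the other library, beside 83.6% and 80.8% of all promoter peaks.

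Distal open chromatin was found at nearly all members. A distal peak lay over 1 kb from every annotated start and inside the gene body extended by 10 kb on each side. At least 1 was found at 50 of 55 members in replicate 1 and 53 in replicate 2, against 58.3% and 67.5% of all genes. In the longer lists 53 and 54 had one, against 69.6% and 77%. Members are long genes, and 44 of them fell in the longest of 3 equal classes of window length. There 43 and 44 had a distal peak, against 80% and 89.7% of all genes of that class. Within that class the median gene length was 130 kb for members and 69.4 kb for all genes, so length is matched only in part. The member windows held 221 distal peaks in replicate 1 and 340 in replicate 2. The median density was 2.41 and 3.81 per 100 kb, against 1.73 and 3.18 over all genes. Among long genes, members had 2.56 and 3.78 and all genes 1.92 and 3.71, so the difference in replicate 2 was small. Of the 29 members without a promoter peak, 25 and 27 had a distal peak. Col10a1 and Col9a3 had none in either library.

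**Figure D4:**
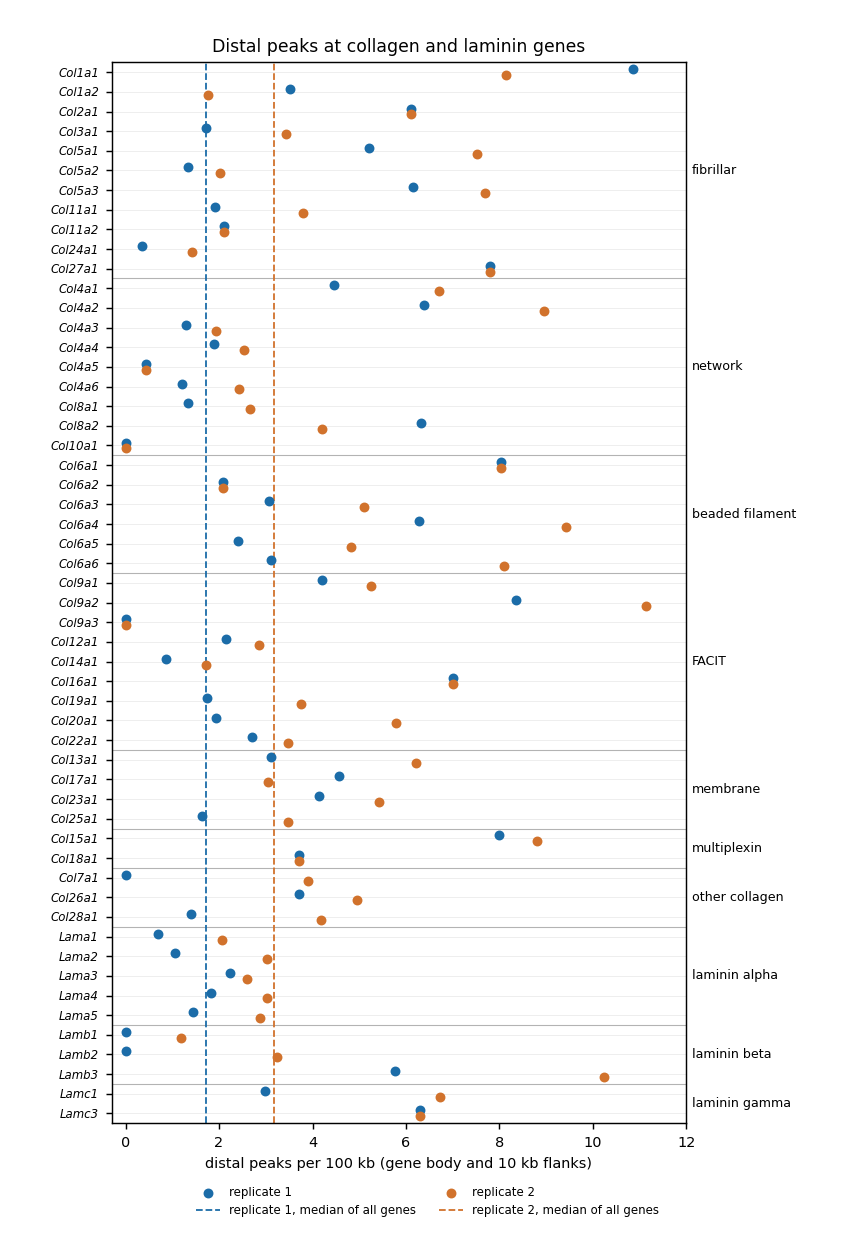
Distal peaks per 100 kb of each gene's window, its body and 10 kb flanks (x axis), for 54 of the 55 members (y axis, grouped by structural class) in replicate 1 (blue) and replicate 2 (orange); dashed lines are the medians over all protein-coding genes (1.73 and 3.18). Col9a2 and Col1a1 lie farthest to the right, and Col10a1 and Col9a3 at 0 in both libraries.

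By the mean of the 2 shorter lists, density was highest at Col9a2, a FACIT chain of cartilage, with 8.35 and 11.1 per 100 kb from 3 and 4 peaks in a gene of 15.9 kb. Col1a1 had 10.9 and 8.15 from 4 and 3 peaks, and was the highest in replicate 1. In the longer lists Col4a2 (mean 13.1) and Col15a1 (12.8) stood above Col9a2 (12.5). Counts at such short genes are small, so 1 peak moves the density by much. Among longer genes, Col15a1 had 10 and 11 peaks (8.0 and 8.80 per 100 kb) and Col27a1 had 11 in each library (7.80). Lamb3 had 9 and 16 (5.76 and 10.2), Col6a4 had 8 and 12 (6.28 and 9.42) and Col4a2 had 6.39 and 8.95 per 100 kb. Col6a1 (8.03 in both), Col16a1 (7.0 in both) and Col5a3 (6.15 and 7.69) completed the 10 highest means. Col15a1, Col6a1, Col6a4 and Col9a2 had no promoter peak in the shorter lists.

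Most distal member peaks were intronic, 81.0% in replicate 1 and 84.1% in replicate 2. Members are long, with a median length of 114 kb against 17.4 kb over all genes, so gene body fills most of a typical member window. In replicate 1, 20 also lay in the window of another protein-coding gene, and in replicate 2, 33 did, so they cannot be assigned to the member alone. Neither count was made over all distal peaks. Of the distal peaks 86.0% in replicate 1 and 55.3% in replicate 2 overlapped a peak of the other library, beside 86.9% and 49.1% of all distal peaks. A footprint lay in 95.5% and 90.6% of them, beside 93.1% and 88.4% of all distal peaks.

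Of the shared distal peaks, the strongest mean belonged to the printed Col16a1 region, at 7.96 and 4.52 (mean 6.24 ± 2.43, SD, n = 2). The printed Col23a1 region followed at 8.32 and 4.04, and the spread between libraries does not separate the pair. Col18a1 had 5.81 and 5.18 at chr10:77130661-77130840 in an intron, a smaller spread (mean 5.49 ± 0.444, SD, n = 2), although its promoter had no peak in the shorter lists. Col26a1 had 6.18 and 3.17 at chr5:136790941-136791100. Col27a1 had 7.01 and 2.24 in the printed region and 3.87 and 4.44 at chr4:63291161-63291380. The printed Col13a1 region, centred at -1522 bp from a start, had 6.06 and 2.71. Lama3 had 4.11 and 3.78 in an intron. Lamb3 had 4.2 and 3.43 at chr1:193330301-193330460. Each of these 10 peaks, counting the Col4a1 peak at 3.97 and 5.15, was stronger in both libraries than any promoter peak of its gene. They were picked as the highest by this same signal, so the comparison supports nothing further. Col18a1 and Lama3 had no promoter peak in the shorter lists to compare.

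The letters of known factor sites were searched on both strands in all peaks, and no searched string contains another. The core letters of the insulator protein CTCF, AGGGGGCGC, lay in a footprint in 9 of 221 distal member peaks in replicate 1 (4.07%) and 8 of 340 in replicate 2 (2.35%), beside 2.2% and 0.929% of all distal peaks. The 8 matches of replicate 2 were also matches of replicate 1. They lie at Col23a1, Col27a1, Col13a1, Col11a2, Col6a1, Col6a6, Col9a2 and Col4a2, and the first 3 are in the printed regions, where the reverse complement GCGCCCCCT is in capitals. The AP-1 letters TGANTCA lay in a footprint in 2 (0.905%) and 16 (4.71%) distal member peaks, beside 2.45% and 4.79% of all distal peaks. In member promoter peaks the SP/KLF letters GGGCGG were found in 16 of 36 and 14 of 35, beside 54.5% and 49.9% of all promoter peaks. The ETS letters CCGGAA were found in 1 of 36 and 1 of 35, beside 19% and 19.5%. A match is a description of the letters and does not show that a factor was bound.

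Genes that make, anchor or bind these proteins were listed beside the members. Of 25 genes of collagen synthesis and crosslinking, 18 had a promoter peak in replicate 1 and 16 in replicate 2. P4hb, a subunit of the prolyl hydroxylase and a general folding enzyme, had 9.29 and 10.8, P4ha1, its catalytic partner, had 10.1 and 6.85, and P3h1, which hydroxylates further prolines, had 8.0 and 9.18. The crosslinking oxidases Lox and Loxl2, the chaperone Serpinh1 and Pcolce had none in the shorter lists. Of 9 basement membrane partners, 6 and 7 had a promoter peak, among them Hspg2 (perlecan) at 2.47 and 1.65 and Agrn (agrin) at 1.93 and 1.30, while Nid1 had none in the shorter lists. Of 16 receptors, 12 and 11 did, with Dag1 (dystroglycan), the laminin receptor of astrocyte endfeet, at 7.84 and 4.89 and the integrin chain Itgb1 at 3.17 and 3.32. Of 12 remodelling genes, 9 did in both libraries. These shares, like those of the members, stand beside 60.7% and 61.2% of all genes, and many of these genes also serve other proteins. They are not matched for CpG content. Of the 25 synthesis genes, 15 were in the high CpG class, where 95.4% and 94.1% of all genes had a promoter peak. A further 9 were in the middle class, where 74.3% and 74.5% did.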

How the data were processed

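The 2 DNase-seq libraries were made from isolated nuclei, per the protocol named in the labels. The authors deposited 2 lists of peaks, the positions of footprints and values per base for each library, on mm10 per the deposited notes. The signal of each peak is the authors' deposited value, and its scaling is not stated. The q-values (false discovery rates) are the authors' deposited values up to 0.05. The score in the deposited footprint lists is constant, and only positions were used. For the aligner, the callers and their versions, the sources used here state nothing. Only the numbers of peaks and footprints show the depth, so counting intervals are not given. The reference is C57BL/6J, and CAST alleles that differ from it may be missed.

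Genes came from the GENCODE M21 basic annotation, on GRCm38.p6. A promoter peak lay within 1 kb of the start of a coding transcript, a distal peak over 1 kb from every annotated start and inside the gene body extended by 10 kb. Sharing needed 1 bp of overlap. The shorter list was the main one. Work used python 3.11.15, numpy 2.4.6, pandas 2.3.3 and matplotlib 3.10.9, and the interval code was tested on simulated peaks.

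The members, lists, motifs and alternatives were chosen with earlier results of these data known. Values are given for every member with a promoter peak, the 10 members with the highest mean distal density and the 10 shared distal peaks with the highest mean signal, 1 of which is given no coordinates here. The values of 1 laminin member and the sequence of 1 region are not reported here; the member stays in the counts. With 1 group of 2 libraries, no test was made.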

Additional observations from a re-analysis of the deposited data

How the results depend on the processing

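Of 27 alternative values for the 5 summary results, 19 stayed within the spread between libraries, or within 1.5 times for counts, and 8 moved. Leaving out a library gives the other's own value, so its ranges show only the 2 values. The mean number of members with a promoter peak was 23.5. It was 23 and 24 when either library was left out, and 35 in the longer lists. That last value lies just inside the limit of 1.5 times and so counts as having stayed. In the longer lists members stood at 60% and 67.3%, beside 65% and 66% of all genes, so the shortfall of the shorter lists was small or absent there. Windows of 500 bp and 2 kb around a start gave mean numbers of 19.5 and 28.5. Counting only peaks that cover a start site, an alternative chosen after seeing the data, gave 9.5. With the 73221 strongest peaks of both libraries the mean number was 20, but replicate 2 then fell from 23 members to 16. The median promoter signal, 1.16, ranged from 0.934 to 1.39 with a library left out. It was 0.699 in the longer lists, 1.71 with equal numbers of peaks and 1.5 with a 2 kb window. The mean share of member promoter peaks found in both libraries, 81.7%, was 75.2%, 73.8% and 79.8% under these alternatives, and 80.6% to 82.9% with a library left out. With equal numbers of peaks the libraries stood at 52.8% and 94.7%. The median distal density, 3.11 per 100 kb, was 5.28 in the longer lists and 2.41 to 3.81 with a library left out. Members with a distal peak numbered 50 to 53 with a library left out, 45.5 on average with no flank, 48 with equal numbers of peaks and 55 with a 50 kb flank. A looser CTCF consensus, shaped after seeing the footprint letters of these members, put a match in a footprint of 17.6% of distal member peaks on average in place of 3.21%; it supports nothing. No paired analysis was possible because the study has a single group. The 2 libraries limit the precision.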
